A study of Mus musculus with 6 samples.

Results

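The Fc gamma receptors, the adaptors they signal through and the kinase Syk were followed in lung cells of mice that had been given C1q or saline. The 7 genes were taken by symbol, Fcgr1, Fcgr2b, Fcgr3, Fcgr4, Fcer1g, Tyrobp and Syk, and all 7 had a row among the 26890 genes listed and were among the 13473 genes with enough counts to test. The animals were wild-type (WT) C57BL/6 mice with intact C1q genes of their own. They received saline (3 libraries) or C1q at 20 µg per mouse (3 libraries) into the trachea, and lungs were taken at day 3. The sources used here give neither age nor sex. Saline was the only control, so C1q cannot be told apart from instilled protein in general, and the treatment text of all libraries describes C1q, so the saline group rests on its own treatment label. Nothing states that the libraries came from separate animals, so p-values measure the spread between these libraries. RNA came from a digested, Percoll-separated lung suspension, which mixes leukocytes with endothelial, epithelial and stromal cells. Total counts ran from 2577429 to 2991562 in the saline libraries and from 2227619 to 3650793 in the C1q libraries. Levels are given as CPM, counts scaled to the size of each library with TMM normalisation, and a single count was worth 0.277 to 0.451 CPM.

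Fc gamma receptors bind the constant region of IgG, the same part of the antibody that C1q binds in immune complexes. The activating receptors encoded by Fcgr1, Fcgr3 and Fcgr4 have no signalling motif of their own and depend on the FcR gamma chain, encoded by Fcer1g. Its immunoreceptor tyrosine-based activation motif (ITAM) is phosphorylated by Src family kinases and then recruits Syk. The inhibitory receptor encoded by Fcgr2b carries an inhibitory motif (ITIM) that recruits the lipid phosphatase SHIP1. Tyrobp encodes DAP12, a second ITAM adaptor that serves TREM and other myeloid receptors. In the lung these genes are known for expression in macrophages, monocytes, neutrophils and natural killer cells, and Fcgr2b also in B cells.

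On GRCm38, Fcgr2b (170958617 to 170976547), Fcgr4 (171018920 to 171029761) and Fcgr3 (171051174 to 171064935) lie within 106 kb of chromosome 1, with Fcer1g (171229572 to 171234365) on the same chromosome. Fcgr1 lies on chromosome 3 (96282909 to 96293969), Tyrobp on chromosome 7 (30413760 to 30417585) and Syk on chromosome 13 (52583173 to 52648792). All 7 are annotated as protein-coding in GENCODE M21. Fcgr2b and Fcgr3 are related in sequence: 9.58% of the 50-base stretches in Fcgr3 transcripts also occur in Fcgr2b transcripts, and 2.92% of those of Fcgr2b occur in Fcgr3. For 30-base stretches the shares are 13.7% and 4.25%. Reads from such stretches could be counted for either gene, and the share of counts this touches was not measured. Exons of Fcgr2b overlap those of the antisense gene Gm38204, and the sources used here do not say how strand was handled, so reads of the 2 genes cannot be told apart.

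The libraries read 5′ ends of transcripts, so the regions before the start sites of the 4 receptor genes are shown. They come from RefSeq on GRCm38.p6, are written 5′ to 3′ on the strand of the gene, and leave out annotated exons. The RefSeq start of Fcgr3 lies inside the longer gene model of GENCODE. Capitals mark GAGGAA or its complement, the core of sites bound by the myeloid transcription factor PU.1, and TTCNNNGAA, the element bound by STAT dimers.
Fcgr1, chr3:96293970-96294119, minus strand: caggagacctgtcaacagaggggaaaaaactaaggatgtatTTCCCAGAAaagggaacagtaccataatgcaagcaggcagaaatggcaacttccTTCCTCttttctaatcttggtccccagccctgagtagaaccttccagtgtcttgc
Fcgr2b, chr1:170976128-170976174, minus strand: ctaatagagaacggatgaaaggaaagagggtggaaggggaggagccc
Fcgr3, chr1:171059404-171059553, minus strand: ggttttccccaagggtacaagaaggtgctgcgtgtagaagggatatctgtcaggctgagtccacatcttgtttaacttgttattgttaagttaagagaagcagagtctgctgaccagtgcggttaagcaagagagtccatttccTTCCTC
Fcgr4, chr1:171018776-171018919, plus strand: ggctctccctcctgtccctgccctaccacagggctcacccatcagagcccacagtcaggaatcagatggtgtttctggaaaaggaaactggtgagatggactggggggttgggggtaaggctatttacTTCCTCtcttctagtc
In the 150 bases before a RefSeq start, read on both strands, GAGGAA was found for Fcgr3 (6 to 1 bases before the start), Fcgr4 (22 to 17) and Fcgr1 (55 to 50), and at the second of the starts of Syk (9 to 4). That window holds Syk exon sequence, and its longest stretch without an exon ends 30 bases before the start, so the match lies outside it. GAGGAA was present in 14.5% of 32851 such windows of all genes. TTCNNNGAA was found for Fcgr1 alone of the 6 genes with an entry, at 109 to 101 bases before the start, and in 4.09% of all windows. The motifs did not overlap. For Fcgr2b, whose window holds exons of longer transcripts, 47 bases without an exon are printed, and neither motif was in its 150 bases. A match is a description of letters and was not tested as a binding site.

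The inhibitory receptor gene Fcgr2b and the activating receptor gene Fcgr3 had the largest differences between C1q and saline lungs, at 1.78-fold and 1.58-fold higher means, and neither passed the test. Fcgr1, Fcer1g, Fcgr4 and Syk had smaller positive differences within the spread of the libraries. Tyrobp had a lower mean after C1q, a difference that was no longer there without 1 saline library and larger without either of the others. In a mixed cell suspension, a different share of cells that express a gene and a different amount of its RNA per cell cannot be told apart. With edgeR's quasi-likelihood test and Benjamini-Hochberg adjustment over all genes, 0 of 7 passed at 0.05 (adjusted p from 0.501 to 0.907), where 0.0297% of all genes were called. Unadjusted p was under 0.05 for 2 of 7, Fcgr2b and Fcgr3 (8.16% of all genes tested). Both were higher after C1q, beside 4.22% of all genes in that direction, and 0 were lower, beside 3.94%. DESeq2 and limma-voom also called 0 of 7, whereas edgeR with no filter on low counts called 2, Fcgr2b (adjusted p = 0.00519) and Fcgr3 (adjusted p = 0.0321). The same unfiltered fit called 373 genes in all against 4 in the filtered fit. Its SE was 0.189 for each of Fcer1g, Tyrobp and Syk, where the filtered fit gave 0.203, 0.321 and 0.158. For the 2 genes called, Fcgr2b and Fcgr3, the unfiltered fit gave an SE of 0.208 and 0.194, and the filtered fit 0.242 and 0.261. The SE thus differed between the fits, up for Syk and down for the other 4 genes, and the cause of the added calls was not tested.

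**Figure D1:**
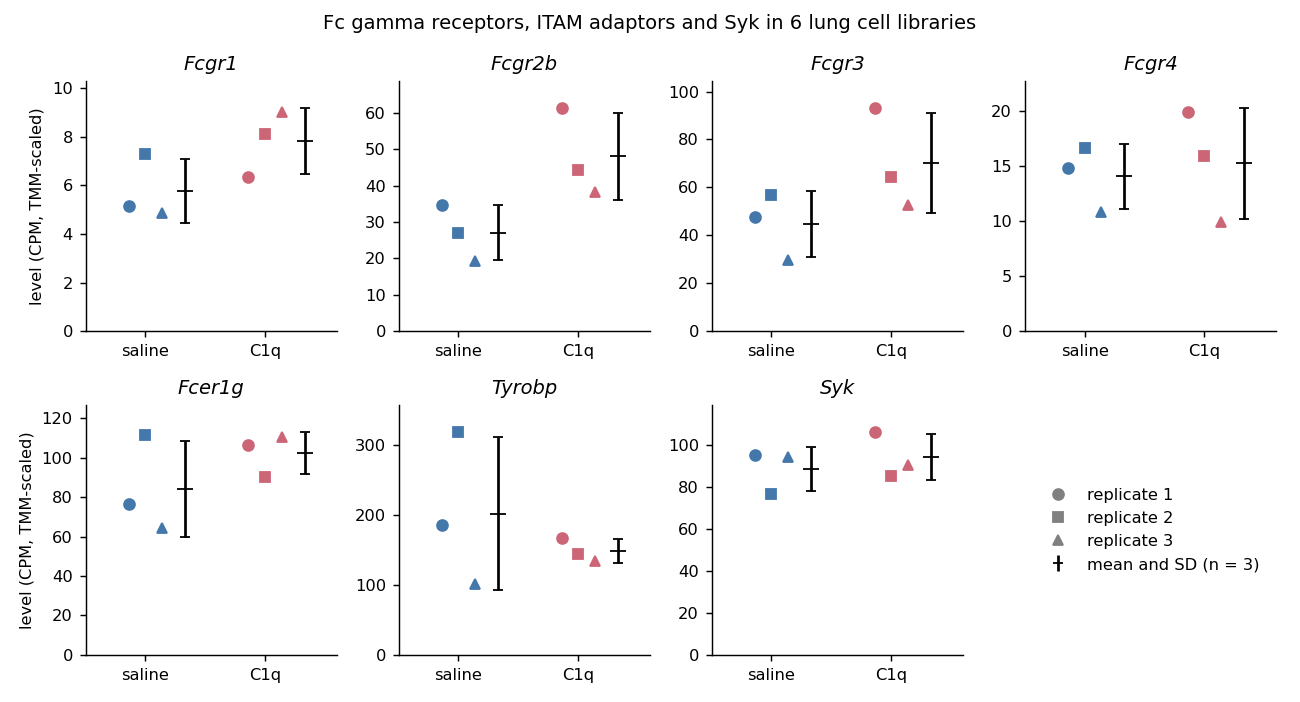
Level of each gene in CPM (vertical axis from 0) in 3 saline (blue) and 3 C1q (red) libraries, with symbols for replicates and the mean and SD in black. The 3 C1q libraries lie above all 3 saline libraries for Fcgr2b alone, and saline replicate 2 stands far above the others for Tyrobp.

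Fcgr2b gives the only inhibitory signal among the classical Fc gamma receptors of the mouse. The saline libraries, replicates 1 to 3 in order here and throughout, held 34.7, 27.1 and 19.4 CPM, and the C1q libraries, likewise in order, 61.4, 44.4 and 38.4 CPM. These levels rest on 52 to 222 counts per library. Every C1q library lay above every saline library, which was the case for 1 of the 7 genes and for 8.12% of all genes tested. The reverse, every C1q library below every saline library, was the case for 0 of the 7 and for 5.96% of all genes. The means were 27.1 ± 7.65 and 48.1 ± 11.9 CPM (SD, n = 3 each). In log2 the difference was 0.83 ± 0.24 (SE), with an unadjusted 95% interval of 1.23-fold to 2.58-fold higher, and the adjusted p from edgeR was 0.501. With any 1 library left out the log2 fold change ran from 0.61 to 1.06.

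Fcgr3 encodes the low-affinity activating receptor of macrophages, neutrophils and natural killer cells. The saline libraries held 47.6, 56.7 and 29.5 CPM and the C1q libraries 93.2, 64.2 and 52.8 CPM, from 79 to 337 counts per library. The groups overlapped, because C1q replicate 3 lay below saline replicate 2. Its log2 fold change was 0.66 ± 0.26 (edgeR adjusted p = 0.602), between means of 44.6 ± 13.8 and 70.1 ± 20.8 CPM (SD, n = 3 each). C1q replicate 1 was the highest library for both Fcgr3 and Fcgr2b, and saline replicate 3 the lowest for both. Without C1q replicate 1 the log2 fold change of Fcgr3 was 0.39, and without saline replicate 3 it was 0.44.

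Fcgr1, the gene of the high-affinity IgG receptor and a target of interferon signalling, was near the limit of what these libraries resolve. Saline libraries had 16, 18 and 13 counts and C1q libraries 23, 23 and 20, for which counting error alone is 20.9% to 27.7% of a value. These are 5.14, 7.29 and 4.86 CPM for saline against 6.36, 8.11 and 9.03 CPM for C1q, and the groups overlapped because C1q replicate 1 lay below saline replicate 2. The log2 fold change was 0.43 ± 0.34 (edgeR adjusted p = 0.727), with an interval from 0.806-fold to 2.26-fold.

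Fcgr4, an activating receptor gene of neutrophils and non-classical monocytes, had nearly equal means. Saline libraries held 14.8, 16.6 and 10.8 CPM against 19.9, 15.9 and 9.93 CPM with C1q. The highest and the lowest of the 6 values were both C1q libraries. The log2 fold change was 0.14 ± 0.29 (edgeR adjusted p = 0.907), and its interval of 0.708-fold to 1.72-fold leaves room for a difference in either direction. The direction depended on single libraries, with a log2 fold change of -0.11 without C1q replicate 1 and -0.0054 without saline replicate 3.

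Fcer1g, the adaptor gene shared by the activating Fc gamma receptors, was measured at 76.5, 111 and 64.2 CPM with saline and at 107, 90.3 and 111 CPM with C1q. The groups overlapped, with saline replicate 2 as high as the highest C1q library and the other saline libraries below all 3 C1q libraries. Its log2 fold change was 0.29 ± 0.20 (edgeR adjusted p = 0.698). The interval ran from 0.895-fold to 1.67-fold. Without saline replicate 2 the log2 fold change was 0.55 (adjusted p = 0.252), and without saline replicate 3 it was 0.13.

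Tyrobp, the DAP12 gene, was the most uneven of the 7 among saline libraries, at 185, 319 and 102 CPM, a spread of 3.14-fold between the highest and the lowest. The C1q libraries were close together at 168, 145 and 134 CPM, within the range of the saline libraries. The estimated log2 fold change was -0.44 ± 0.32 (edgeR adjusted p = 0.71), with an interval from 0.451-fold to 1.21-fold. Without saline replicate 2 it was 0.057, so the lower mean rested on that library. Without saline replicate 3, the lowest, it was -0.76 (edgeR adjusted p = 0.186). Saline replicate 2 was also the highest library for the surfactant gene Sftpc (32862 CPM against 15953 to 24418 in the other 5) and the lysozyme gene Lyz2 (8064 CPM against 4795 to 6807), as it was for 19.6% of all genes tested. These 2 genes were singled out after their values were seen. Their part in the Tyrobp value was not tested.

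Syk, the kinase that docks on phosphorylated ITAMs and is also expressed outside the myeloid lineage, had the lowest coefficient of variation of the 7 among saline libraries, at 11.9%. In the C1q libraries it was 11.7%, above those of Fcer1g (10.5%) and Tyrobp (11.5%). Saline libraries held 95.5, 76.5 and 94.1 CPM, and C1q libraries 106, 85.4 and 90.7 CPM. The groups overlapped between 85.4 and 95.5 CPM. The log2 fold change was 0.087 ± 0.16 (edgeR adjusted p = 0.894), and the interval of 0.834-fold to 1.35-fold was the narrowest of the 7. The sign turned without saline replicate 2 (-0.00074) and without C1q replicate 1 (-0.011).

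**Figure D2:**
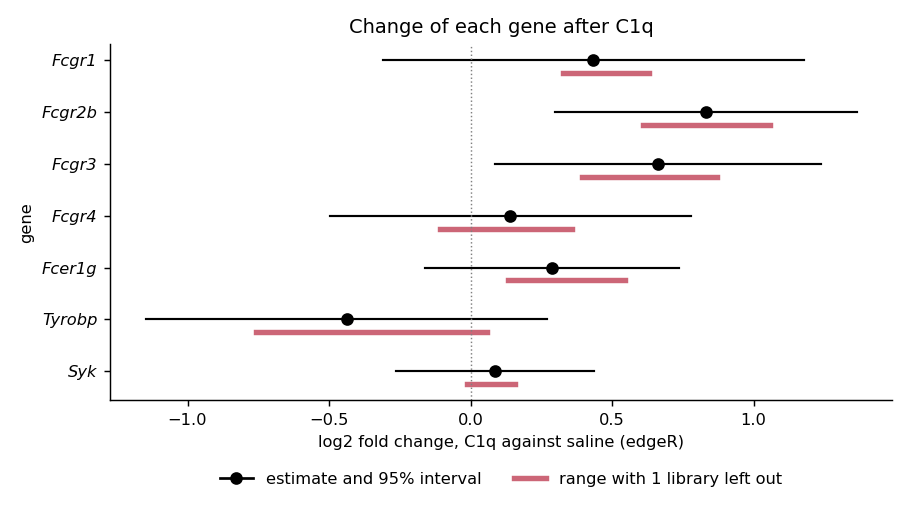
Log2 fold change of C1q against saline (horizontal axis) for each gene, with the edgeR estimate and its unadjusted 95% interval in black and the range of estimates with 1 library left out in red. The estimates run from -0.44 for Tyrobp to 0.83 for Fcgr2b, and the red ranges of Fcgr4, Tyrobp and Syk cross 0.

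Of the 7 genes, 6 had a positive log2 fold change, beside 48.2% of all genes tested, and the median was 0.29 against -0.012 over all genes. The genes share libraries and in part cells, so they are not independent. Saline replicate 3 was the lowest library for 5 of 7, as it was for 23.6% of all genes tested, and C1q replicate 1 was the highest for 4 of 7, against 17.8% of all genes. Saline replicate 3 also differed in make-up, with counts in 23259 genes where the other libraries had 20520 to 21749. Its share of counts in tested genes was 98.2%, against 99.0% to 99.2%. The part of this in the levels of the 7 genes was not tested. With each gene centred on its own mean, the mean log2 level of the 7 was -0.071, 0.14 and -0.52 for saline and 0.35, 0.099 and -0.0040 for C1q. Saline replicate 2 was thus above C1q replicates 2 and 3. Fcgr3 resembled the mean of the other 6 most (Pearson r = 0.95 over 6 libraries), and Syk least (r = -0.063).

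**Figure D3:**
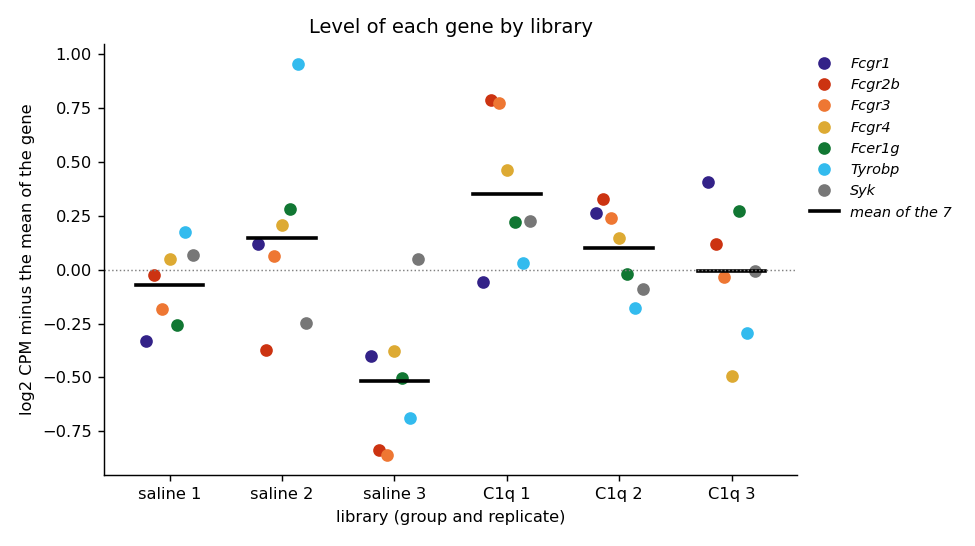
Level of each gene in each library as log2 CPM (prior count 2) minus the mean of that gene (vertical axis), with libraries on the horizontal axis and black bars for the mean of the 7 genes. Saline replicate 3 has the lowest mean, -0.52, and the saline and C1q means overlap.

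Among 7731 other genes with a mean of at least 20 CPM, the 5 whose levels over the 6 libraries were most like the mean of the 7 were Nsmce1 (r = 0.9986), Prelid1 (r = 0.9982), Sar1b (r = 0.9978), Atp6v1g1 (r = 0.9918) and Atp6v0e (r = 0.9882). Nsmce1 encodes a subunit of the SMC5/6 complex, Prelid1 a mitochondrial lipid carrier, Sar1b a GTPase of vesicle budding, and the other two encode subunits of the vacuolar proton pump. All 5 are expressed well beyond leukocytes. An r of at least 0.9 was reached by 316 of these genes (4.09%). These likenesses rest on 6 shared libraries and are given as a description.

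The balance of activating to inhibitory receptors is commonly read as a ratio within a sample, which needs no scaling between libraries. Counts of Fcgr1, Fcgr3 and Fcgr4 together, divided by those of Fcgr2b, gave 1.94, 2.97 and 2.33 in saline and 1.95, 1.98 and 1.87 in C1q. The groups overlapped through saline replicate 1, and the C1q libraries were closer together (SD 0.0578 against 0.518, n = 3 each). The mean log2 ratio differed by -0.30 (C1q minus saline), and by -0.14 without saline replicate 2. The difference was negative under each of the other numerators, from -0.61 without Fcgr3 to -0.19 without Fcgr4. An exact permutation test at 3 against 3 cannot go below p = 0.1, and no p is given for these ratios.

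Fcgr4 against Fcgr2b was the ratio that separated the groups, at 0.426, 0.612 and 0.558 in saline and 0.324, 0.357 and 0.259 in C1q. This ratio was singled out after its values were seen. The ratio to Fcgr2b was lower in all 3 C1q libraries for 54.9% of all genes tested, so most genes separated in the same way. The ratio of Fcgr3 to Fcgr2b overlapped between the groups, at 1.37, 2.09 and 1.52 in saline and 1.52, 1.44 and 1.38 in C1q. That of Fcgr1 overlapped as well, at 0.148 to 0.269 in saline and 0.104 to 0.235 in C1q. Between the adaptors, the Tyrobp to Fcer1g ratio was 2.42, 2.87 and 1.58 with saline and 1.57, 1.61 and 1.21 with C1q. Saline replicate 3 lay among the C1q libraries, and the other saline libraries lay above all of them.

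**Figure D4:**
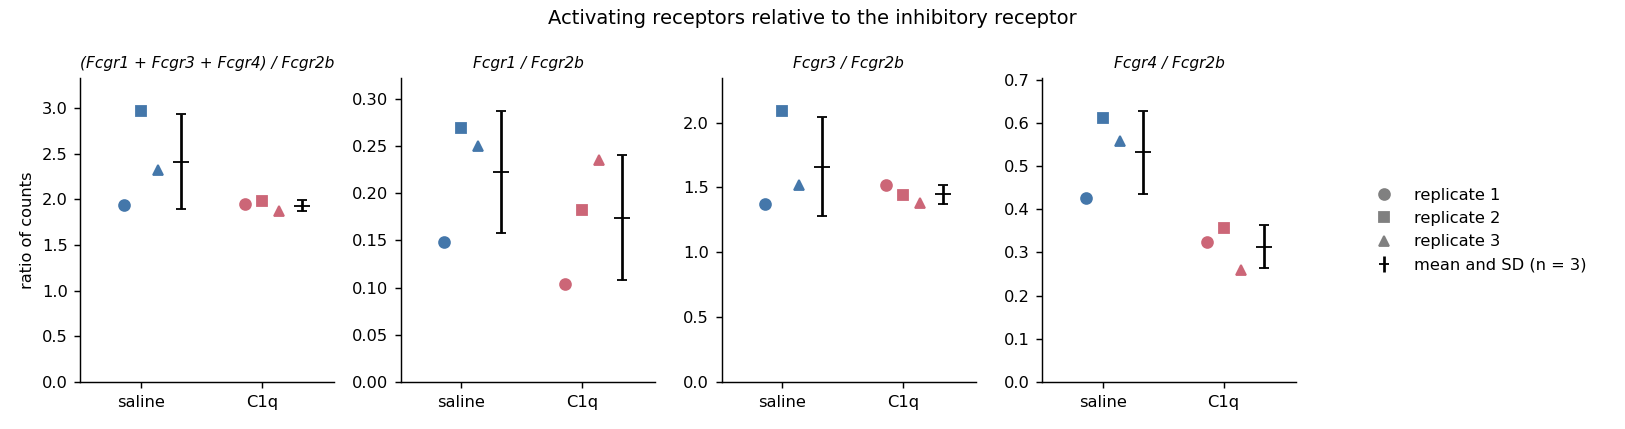
Ratios of counts within each library (vertical axes from 0), for the 3 activating receptors together and each alone against Fcgr2b, with mean and SD in black. The summed ratio lies between 1.87 and 1.98 in the C1q libraries and between 1.94 and 2.97 in saline.

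To relate the genes to leukocyte RNA, they were also set against the summed counts of 4 pan-leukocyte genes, Ptprc, Laptm5, Cd53 and Coro1a. Summed leukocyte levels were 803, 728 and 592 CPM in saline and 915, 745 and 800 CPM in C1q, lowest in saline replicate 3. Of these 4 genes 0 passed, beside 0.0297% of all genes tested. A positive log2 fold change was found for 3 (median 0.25), beside 48.2% of all genes (median -0.012). Per 1000 leukocyte counts there were 43.2, 37.2 and 32.8 Fcgr2b counts in saline and 67.1, 59.7 and 48.0 in C1q. All 3 C1q libraries again lay above saline, as for 1.63% of all genes set against the same sum. The mean log2 difference was 0.62, from 0.51 to 0.75 with 1 library left out.

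Fcgr3 had 59.2, 77.8 and 49.8 counts per 1000 leukocyte counts in saline and 102, 86.2 and 66.0 in C1q, with overlapping groups. Syk stood at 119, 105 and 159 in saline and 116, 115 and 113 in C1q. Tyrobp stood at 231, 439 and 172 in saline and 183, 195 and 168 in C1q, and overlapped between the groups. So did Fcgr1, Fcgr4 and Fcer1g. Another sum was taken over 6 monocyte and macrophage genes, in which Lyz2 made up 93.2% to 95.3%. Of these 6 genes 0 passed (0.0297% of all genes tested) and 6 were positive (48.2% of all genes tested), with a median of 0.34. The sum thus follows Lyz2, whose own log2 fold change was 0.019 ± 0.21 (SE), and does not weigh the 6 genes alike. Against this sum, Fcgr2b and Fcgr3 both separated the groups (mean log2 differences 0.77 and 0.59), where 3.05% of all genes did. These are in effect ratios to Lyz2, and levels per phagocyte were not measured.

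Markers of the cell types known to carry these receptors were followed in the same libraries. In the 16 marker lists 0 genes passed over all genes, beside 0.0297% of all genes tested. For the lists of macrophages, monocytes, neutrophils, B cells and natural killer cells the summed levels overlapped between the groups. Alveolar macrophage markers (8 of 8 genes tested) summed to 309 to 439 CPM in saline and 366 to 443 CPM in C1q. Interstitial macrophage markers (7 of 8) summed to 769 to 1169 CPM and 987 to 1170 CPM. In this list C1qa, C1qb and C1qc, singled out after their values were seen, lay above saline in every C1q library. So did 8.12% of all genes tested. Classical monocyte markers (6 of 6) summed to 497 to 687 CPM and 602 to 841 CPM, and neutrophil markers (6 of 7) to 54.7 to 95.9 CPM and 63.2 to 112 CPM, with Ly6g, which defines neutrophils, at 1 count in all libraries together. Non-classical monocyte markers (7 of 7), the class known for Fcgr4, summed to 511 to 573 CPM and 448 to 559 CPM, most of it from Ace, which endothelial cells also express. B cell markers (5 of 5), the class known for Fcgr2b outside the myeloid lineage, summed to 168 to 241 CPM and 144 to 246 CPM, and natural killer cell markers (5 of 6) to 58.6 to 125 CPM and 53.6 to 127 CPM. By single gene, log2 fold changes were positive for 5 of 8 alveolar and 6 of 7 interstitial macrophage markers tested. They were positive for 6 of 6 classical monocyte, 1 of 7 non-classical monocyte and 5 of 6 neutrophil markers. For B cells this was 2 of 5 and for natural killer cells 1 of 5, beside 48.2% of all genes tested. The part of these cell types in the values of the 7 genes was not tested.

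Of the remaining lists, dendritic cell markers (5 of 6) summed to 97.6 to 111 CPM in saline and 100 to 131 CPM in C1q, endothelial markers (4 of 4) to 2491 to 2813 CPM and 2112 to 2582 CPM, epithelial markers (4 of 4) to 19591 to 38463 CPM and 26593 to 29353 CPM, and haemoglobin genes (4 of 4) to 117 to 271 CPM and 37.9 to 189 CPM. Fibroblast markers (4 of 4) did not overlap, at 942 to 1103 CPM in saline and 1544 to 1938 CPM in C1q. Neither did platelet markers (3 of 5), at 24.4 to 25.5 CPM and 17.1 to 19.4 CPM. Among single genes, 8.12% of all tested lay above saline in every C1q library and 5.96% below. T cell markers (4 of 5) summed to 38.5 to 57.2 CPM and 35.7 to 39.8 CPM. Mast cell and basophil markers (1 of 7) summed to 51.9 to 62.7 CPM and 61.4 to 70.2 CPM, nearly all from Hdc, while Fcer1a and Ms4a2, which define the IgE receptor, had 5 and 7 counts in all libraries together. Eosinophil markers (0 of 3) summed to 1.87 to 2.89 CPM and 3.16 to 6.00 CPM, which did not overlap, with Epx at 1 count in all.

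The other genes of the pathway were counted by role, and none of 7 further groups held a gene that passed over all genes. Of all genes tested, 0.0297% passed. Values not given in CPM are log2 fold changes of C1q against saline with their SE. Receptors that signal through Fcer1g or Tyrobp had the highest median log2 fold change of these groups, at 0.42 over 17 tested genes. Of these, 16 were positive, beside 48.2% of all genes tested. Clec4e, which encodes the C-type lectin Mincle, averaged 13.2 ± 2.39 CPM with saline against 27.0 ± 3.88 CPM with C1q (SD, n = 3 each), or 1.04 ± 0.22 in log2 (edgeR adjusted p = 0.277). Clec4n, the gene of Dectin-2, was at 0.65 ± 0.20 (adjusted p = 0.522), Trem2 at 0.59 ± 0.27 and Trem1 at 0.40 ± 0.17. All C1q libraries lay above all saline libraries for 4 of the 17 tested genes, beside 8.12% of all genes. They were these 4 genes, which were named for their small p. The natural killer receptor gene Ncr1 was the 1 gene with a negative value.

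Genes that restrain ITAM signalling had a median of 0.17 over 22 tested, with 20 positive (48.2% of all genes tested) and 5 with all C1q libraries above saline (8.12% of all genes tested). Lilrb4a, an ITIM receptor gene of myeloid cells, averaged 70.0 ± 2.56 CPM with saline against 106 ± 11.5 CPM with C1q, or 0.60 ± 0.15 in log2 (edgeR adjusted p = 0.383). The adaptor gene Dok2 was at 0.95 ± 0.31, the ITIM lectin gene Clec4a2 at 0.80 ± 0.31 and the phosphatase gene Ubash3b at 0.53 ± 0.22, with adjusted p from 0.536 to 0.602. Inpp5d, which encodes the SHIP1 phosphatase recruited by the Fcgr2b product, was at 0.21 ± 0.19 (adjusted p = 0.771).

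Kinases and adaptors around Syk had a median of 0.15 over 21 tested, 15 of them positive (48.2% of all genes tested). The 4 with the smallest p at a mean of at least 5 CPM were Pik3cg at 0.56 ± 0.31, Blnk at 0.64 ± 0.37, Prkcd at 0.24 ± 0.14 and Pik3cd at -0.31 ± 0.20, with edgeR adjusted p from 0.639 to 0.681. Of the Src family genes that phosphorylate ITAMs in myeloid cells, those described here were close to 0, with Lyn at 0.097 ± 0.18 and Fgr at 0.15 ± 0.21.

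Phagocyte effector genes had a median of 0.28 over 11 tested, 10 of them positive (48.2% of all genes tested). Ncf1, which encodes the p47phox subunit of the NADPH oxidase, averaged 28.0 ± 4.17 CPM with saline against 46.5 ± 9.65 CPM with C1q, or 0.73 ± 0.20 in log2 (edgeR adjusted p = 0.415). The catalytic subunit gene Cybb was at 0.34 ± 0.17 and the actin regulator gene Arpc1b at 0.33 ± 0.17, both with overlapping groups.

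Among regulators of receptor level, the median was 0.12 over 12 tested, 9 of them positive (48.2% of all genes tested). C5ar1, the receptor for the anaphylatoxin C5a, which is known to shift the receptor balance on alveolar macrophages, was at 0.57 ± 0.19 (edgeR adjusted p = 0.547) and lay above saline in all C1q libraries. Spi1, which encodes PU.1, was at 0.42 ± 0.20 with overlapping groups, and Tgfb1 at 0.33 ± 0.15.

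Other antibody receptors had a median of -0.045 over 8 tested, 4 of them positive, and other ITAM chains -0.15 over 10 tested, 4 of them positive. Of all genes tested, 48.2% were positive. The sign of both medians depended on the processing, from -0.20 to 0.074 and from -0.27 to 0.033 over the alternatives. Fcgrt, the gene of the neonatal Fc receptor that recycles IgG, was at 0.24 ± 0.24, the IgA transporter gene Pigr at -0.24 ± 0.20, the B cell gene Fcrla at 0.61 ± 0.28 and the cytosolic receptor gene Trim21 at -0.53 ± 0.45 (edgeR adjusted p from 0.606 to 0.79). Clec7a, which encodes the beta-glucan receptor Dectin-1, was at 0.61 ± 0.16 (adjusted p = 0.41). The lymphocyte chain genes Cd247 (-0.38 ± 0.28) and Cd79b (-0.22 ± 0.22) had negative values, and Zap70, the relative of Syk in T cells, was at 0.63 ± 0.40.

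**Figure D5:**
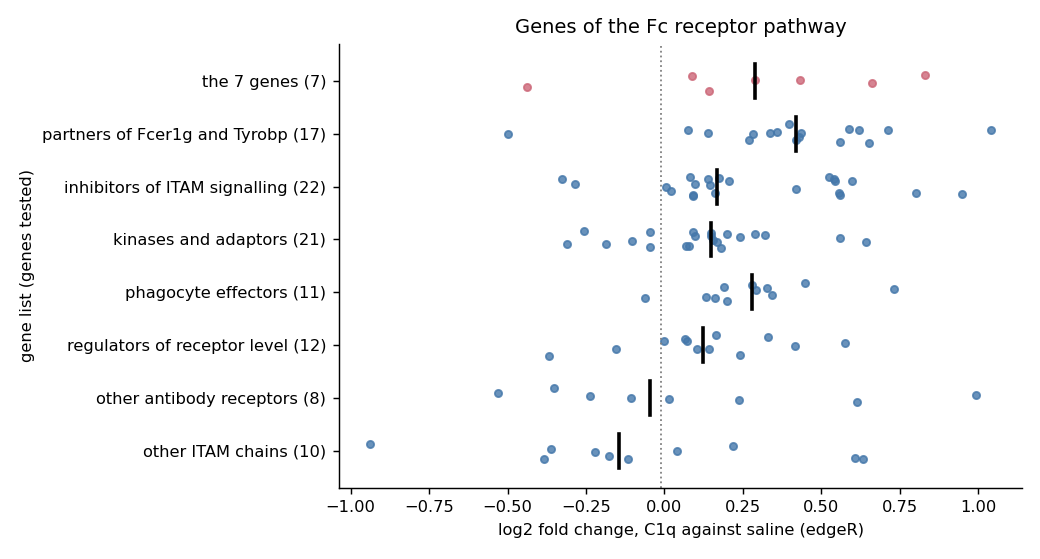
Log2 fold change of C1q against saline (horizontal axis) for every tested gene of each group, with the number tested in parentheses, black bars for medians and a dotted line at the median of all genes. Medians run from -0.15 for other ITAM chains to 0.42 for the receptors that pair with Fcer1g or Tyrobp, and no point passed the test.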

How the data were processed

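Poly(A) RNA of 6 libraries (3 saline, 3 C1q) was read at transcript 5′ ends. The deposited values are counts, whole numbers per gene symbol with no normalization by the authors. Per the submitters' processing notes, cutadapt 2.1.0, Bowtie2 2.4.2 and GRCm38 were used. The sources used here do not give the counting step, the annotation, the read length, any use of molecular identifiers or the handling of reads away from the start, so levels were not ranked between genes. Total counts ran from 2227619 to 3650793 per library, so that 1 count is 0.277 to 0.451 CPM. Counting errors cover counting only.

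Genes kept by filterByExpr (13473 of 26890) entered a two-sided edgeR 4.0.16 quasi-likelihood test after TMM scaling (glmQLFit, glmQLFTest, with a term for treatment), with Benjamini-Hochberg adjustment over all genes kept and a threshold of 0.05. The fit was tested on simulated data. Intervals are 95% intervals from the standard error and the total degrees of freedom of the fit. These add prior degrees of freedom, estimated over all genes, to the residual ones. Alternatives were RLE, upper-quartile and no scaling, no filter, at least 5 CPM in 3 libraries, DESeq2 1.42.0, limma-voom (limma 3.58.1) and each library left out.

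The 7 genes, 7 pathway groups, 2 sets of denominator genes and 16 marker lists were chosen with earlier results of these data known. Genes named from a group were the 4 with the smallest p at a mean of at least 5 CPM, of which some are not reported here. Other genes named (Ncr1, Inpp5d, Lyn, Fgr, Sftpc, Lyz2, C1qa, C1qb, C1qc) and the ratios of single receptors were chosen after their values were seen. Promoter windows came from RefSeq, and positions and transcripts from GENCODE M21, both on GRCm38.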

Additional observations from a re-analysis of the deposited data

How the results depend on the processing

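Without the low-count filter, edgeR called 373 genes instead of 4, 2 instead of 0 of the 7 genes (Fcgr2b at 0.86 and Fcgr3 at 0.69, log2) and 3 instead of 0 genes of the pathway groups (Clec4e, Clec4n and Ncf1), and the cause was not tested. DESeq2 called 37 genes and 0 of the 7. With 1 library left out, edgeR called 0 to 10 genes in all, 0 when saline replicate 1 was dropped, 10 when saline replicate 3 was, 1 for C1q replicate 1 and 2 for C1q replicate 2, and 0 of the 7 and 0 pathway genes each time. These fits hold fewer samples. In them the log2 fold change ran from -0.11 to 0.36 for Fcgr4, -0.76 to 0.057 for Tyrobp and -0.011 to 0.16 for Syk, while Fcgr1 (0.33 to 0.63), Fcgr2b (0.61 to 1.06), Fcgr3 (0.39 to 0.87) and Fcer1g (0.13 to 0.55) stayed positive, as they did under the other 7 alternatives. RLE, upper-quartile and no scaling turned the sign of none of the 7, and the median over all genes stayed between -0.052 and -0.012.

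Relative to leukocyte genes, Fcgr4 was at -0.14, but 0.15 against Ptprc alone and 0.0086 against the monocyte and macrophage sum, mostly Lyz2. Syk was at -0.13, but 0.16 and 0.016. With 1 library left out these differences ran from -0.28 to 0.13 for Fcgr4, -0.043 to 0.30 for Fcer1g and -0.26 to 0.039 for Syk. Those of Fcgr1, Fcgr2b, Fcgr3 and Tyrobp kept their sign in all 8 alternatives, as did the activating to inhibitory ratio in all 10. Depth limits Fcgr1 most, at 13 to 23 counts per library. No paired analysis was possible because the labels give the groups different library numbers.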

Other observations

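Cytokine genes that set Fc gamma receptor levels in macrophages were mostly below the filter on low counts, and no test was made of them. Il13, a type 2 cytokine gene, had 3, 2 and 4 counts in the saline libraries against 12, 9 and 6 with C1q, which is 0.964, 0.810 and 1.49 CPM against 3.32, 3.17 and 2.71 CPM. Ifng, the inducer of Fcgr1, had 8, 3 and 2 counts in saline and 3, 8 and 2 in C1q. Il10 had 4, 2 and 4 counts in saline and 5, 8 and 4 in C1q. Il4 had 0, 3 and 1 counts in saline and 4, 2 and 1 in C1q. Of these 4 genes only Il13 had C1q libraries that were all above saline, and it was singled out after its values were seen. Among genes tested 8.12% did so, a share that leaves out genes with counts as low as those of Il13.

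Hcst, which encodes the adaptor DAP10, also fell below the filter. It had 9, 19 and 5 counts in saline and 12, 3 and 2 in C1q. Its highest library was saline replicate 2, as for Tyrobp.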
